A study of Mus musculus with 6 samples.

Results

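The genes described here are 10 transcription factors that regionalise the neural plate from rostral to caudal: *Six3*, *Hesx1*, *Lhx2*, *Otx1*, *Otx2*, *Pax6*, *En1*, *Gbx2*, *Irx3* and *Zic1*. They were taken by name and matched to the Ensembl identifiers of the count table, in which all 10 of them were present among 35565 genes listed. Bulk RNA-seq was performed on mouse gastruloids at 120 h (day 5), with 3 libraries each for Control (NT) and for KD-1, a line with *T-UCstem1* knocked down. Gastruloids are aggregates of embryonic stem cells (ESCs) that break symmetry and elongate in culture. Both groups derived from the ESC line TBV2 129/SvP and both received a pulse of the WNT agonist CHIR99021, which blocks GSK3. Control (NT) cells carried a non-targeting construct, although the sample labels give their genotype as WT, and KD-1 is a single clone in which the ultraconserved lncRNA *T-UCstem1* was knocked down. Each group is therefore 1 cell line, and a difference between the lines and the effect of the silencing cannot be told apart. The level of *T-UCstem1* was not analysed here, so the knockdown was not checked in these libraries.

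Libraries held between 20982249 and 56674906 counts in Control (NT) and between 41180012 and 85561026 counts in KD-1. Because the column names give the group but not the replicate of the labels, each library is named by its depth within the group (lowest, middle or highest), and values below follow that order. Levels are CPM (counts per library scaled to a common total) after TMM normalization, which scales libraries so that most genes do not differ. A count of 3, taken as the limit of detection, corresponds to 0.143 CPM in the shallowest library and 0.0351 CPM in the deepest, and covers counting error only. Differences were tested with edgeR's quasi-likelihood test over the 15110 genes that passed its filter on low counts. A gene was called when its Benjamini-Hochberg adjusted p was under 0.05 and it changed by over 1.5-fold in either direction. By this rule 19.7% of all genes tested were higher in KD-1 and 18.1% were lower, and the median log2 fold change of all genes was -0.01. The series calls the libraries biological replicates without saying that they came from separate cultures, so the p-values measure the spread between these libraries, which may be technical.

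As background, the neural plate acquires rostral identity where WNT signalling is low, and caudal identity where WNT, FGF and retinoic acid are high. *Six3*, *Hesx1* and *Lhx2* act in the rostral forebrain and eye field, *Otx1* and *Otx2* in the forebrain and midbrain, and *Pax6* in the forebrain, eye and spinal cord. *En1* marks the midbrain and rostral hindbrain, *Gbx2* the hindbrain side of the boundary with the *Otx2* domain, and *Irx3* and *Zic1* extend along much of the neural tube. OTX2 also works outside neural tissue, in the primed epiblast and the anterior visceral endoderm, and gastruloids mainly model the trunk and tail of the embryo.

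The DNA just before start sites of 4 of these genes is given below, and the stretches were not compared with each other. *Otx2* had the largest rise among the 7 genes that could be tested, *En1* and *Pax6* also rose, and *Hesx1* stayed near the limit of detection. Sequences are from the RefSeq promoter table (GRCm38.p6) and were placed on GRCm39 by exact match. They run 5′ to 3′ on the gene's strand, end at the start site or at the first annotated exon base, and contain no annotated exon. The stretch of *Otx2* is chr14:48905102-48905351, minus strand, inside an intron and ending at a start site 6175 bp downstream of the annotated gene start. That of *En1* is chr1:120529966-120530107, plus strand, and that of *Pax6* is chr2:105498991-105499233, plus strand, both ending at the base before the annotated gene. That of *Hesx1* is chr14:26722069-26722318, plus strand, ending at a start site 6033 bp inside the annotated gene. Capitals mark TAATTA, letters searched here as a site of paired-type homeodomains, and binding by any factor was not measured.
*Otx2*: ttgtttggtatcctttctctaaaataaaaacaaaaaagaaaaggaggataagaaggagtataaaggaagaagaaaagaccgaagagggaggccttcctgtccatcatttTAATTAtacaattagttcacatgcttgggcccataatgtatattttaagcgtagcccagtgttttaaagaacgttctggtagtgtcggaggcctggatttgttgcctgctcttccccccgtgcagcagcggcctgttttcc
*En1*: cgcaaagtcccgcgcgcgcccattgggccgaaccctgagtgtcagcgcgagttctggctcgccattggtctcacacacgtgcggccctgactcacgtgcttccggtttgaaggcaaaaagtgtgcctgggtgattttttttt
*Pax6*: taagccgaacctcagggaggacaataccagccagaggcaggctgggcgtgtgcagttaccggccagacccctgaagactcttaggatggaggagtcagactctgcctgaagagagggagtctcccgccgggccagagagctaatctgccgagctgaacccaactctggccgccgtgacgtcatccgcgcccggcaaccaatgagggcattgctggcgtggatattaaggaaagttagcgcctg
*Hesx1*: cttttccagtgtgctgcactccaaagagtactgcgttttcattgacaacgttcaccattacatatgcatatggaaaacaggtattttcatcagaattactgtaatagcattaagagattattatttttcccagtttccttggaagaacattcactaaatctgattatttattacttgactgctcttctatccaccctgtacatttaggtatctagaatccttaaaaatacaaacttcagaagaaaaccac

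Both strands of the 300-base promoters (250 bases before and 50 after a start) of 9 of the 10 genes, 14 promoters in all, were searched for short letter runs that transcription factors are known to bind. These were TAATTA for paired-type homeodomains and TAATCC for bicoid-type homeodomains, the class of OTX2. The TCF/LEF effectors of WNT signalling were searched as CTTTGAA and octamer factors as ATGCAAA. Among all 32851 promoters of the table, 5.29% held TAATTA, 7.06% TAATCC, 5.14% CTTTGAA and 4.63% ATGCAAA. Among the 14, matches were found only in 2 promoters of *Otx2*. The *Otx2* promoter shown above held TAATTA at position -141 from its start. The *Otx2* promoter at chr14:48902517-48902816, whose start lies 8710 bp downstream of the annotated gene start, held TAATTA at -234, -174 and -154 and GGATTA, the reverse complement of TAATCC, at -211. These matches did not overlap one another. The 250 bases before the start of the second promoter lie within annotated *Otx2* exons, so its bases are not shown. At least 3 copies of TAATTA were present in 16 of the 32851 promoters (0.0487%), a count made after the matches were seen. No match for TCF/LEF or octamer letters was present in the 14 windows.

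The most rostral factors were barely detected in either group. Counts of *Six3*, required for the rostral forebrain and eyes, were 0, 0 and 0 for Control (NT) and 1, 2 and 3 for KD-1. Those of *Hesx1*, a repressor needed for forebrain and pituitary development, were 0, 1 and 2 for Control (NT) and 4, 2 and 3 for KD-1. Those of *Otx1*, the paralogue of *Otx2* that functions later in the cortex, were 2, 0 and 0 for Control (NT) and 0, 0 and 0 for KD-1. These 3 genes lay at or around the limit of detection and did not pass the filter on low counts, so no fold change is given. When the filter was dropped, edgeR gave *Six3*, *Hesx1* and *Otx1* adjusted p-values of 0.14, 0.51 and 0.26. A difference in these genes was not detectable at this depth.

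*Lhx2*, a LIM-homeodomain factor of the eye field and cortex, passed the filter at a low level. Its counts were 6, 12 and 9 for Control (NT) and 13, 4 and 33 for KD-1, or 0.289, 0.355 and 0.162 against 0.310, 0.0919 and 0.380 CPM. The groups overlapped, with the lowest and the highest values both in KD-1. The log2 fold change was 0.07 (standard error, SE, 0.59, 95% interval -1.28 to 1.41), with an adjusted p of 0.93 in edgeR's quasi-likelihood test. The interval runs from 0.413-fold to 2.66-fold, so that neither a fall nor a rise of about that size can be told from these counts. Leaving out single libraries moved the log2 fold change of *Lhx2* between -0.37 and 0.43, on either side of 0.

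Of the 7 genes tested, *Otx2* changed most. This bicoid-type homeodomain factor is needed for forebrain and midbrain and also drives the exit from naive pluripotency. Its counts were 87, 170 and 210 for Control (NT) and 1808, 1826 and 3638 for KD-1. In CPM the Control (NT) libraries stood at 4.20, 5.03 and 3.79 and those of KD-1 at 43.1, 42.0 and 41.9. All KD-1 libraries lay above all Control (NT) libraries, and those of KD-1 hardly differed from each other. Means were 4.34 ± 0.633 CPM (SD, n = 3) and 42.3 ± 0.692 CPM (SD, n = 3). *Otx2* rose 9.82-fold (95% interval 8.30 to 11.6), or by 3.29 on the log2 scale (SE 0.11, adjusted p = 7.8e-08, edgeR). In order of log2 fold change it was number 310 among the 15110 genes tested.

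*Pax6*, a paired-type factor of the forebrain, eye and intermediate spinal cord, had 14.8, 16.6 and 14.3 CPM in Control (NT) and 28.5, 30.1 and 29.5 CPM in KD-1. The groups did not overlap. *Pax6* rose 1.93-fold, or by 0.95 on the log2 scale (SE 0.08, adjusted p = 1.6e-05).

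**Figure D1:**
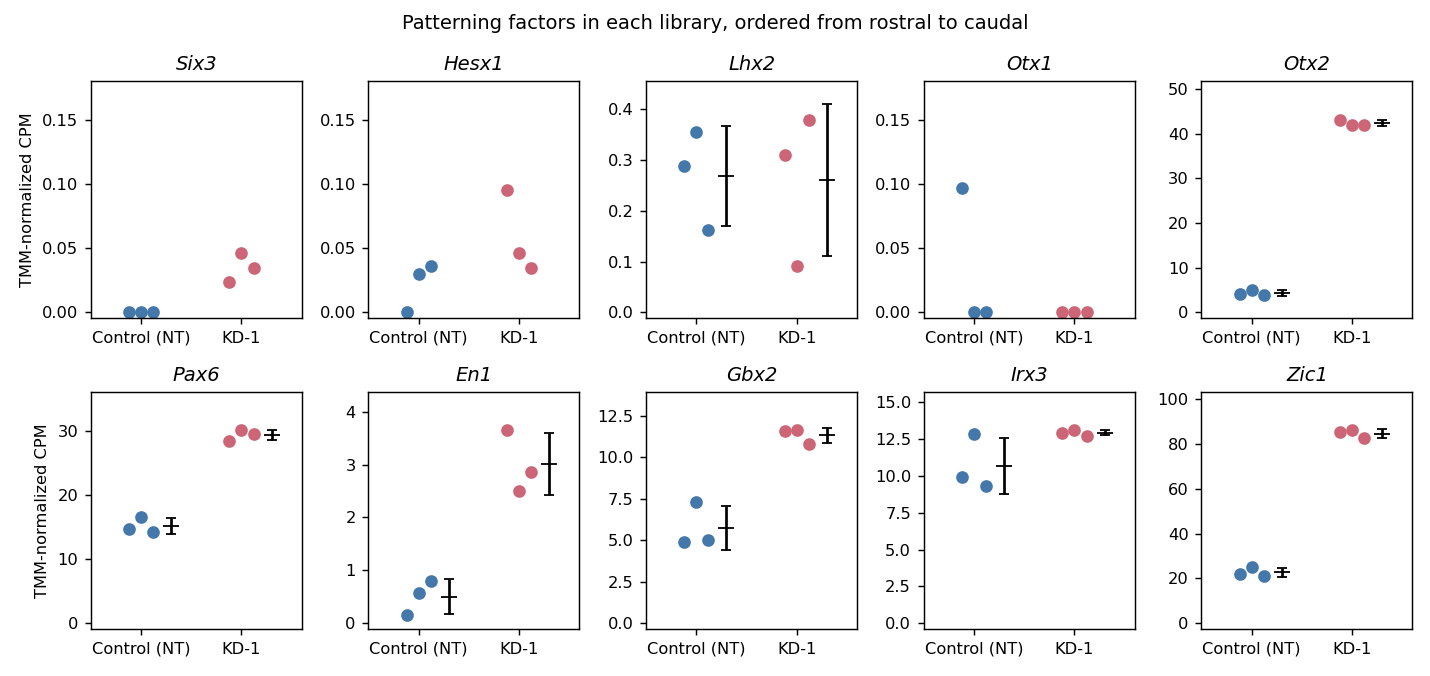
TMM-normalized CPM of the 10 genes in each of the 6 libraries, in rostral to caudal order, with a separate linear scale per gene. Points are libraries in order of depth within their group, and for the 7 genes tested a bar beside them gives the mean and SD (n = 3). *Otx2*, *Pax6*, *En1*, *Gbx2* and *Zic1* show KD-1 libraries above every Control (NT) library, whereas *Lhx2* and *Irx3* overlap and *Six3*, *Hesx1* and *Otx1* stay under 0.1 CPM.

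The factors of the midbrain and its border with the hindbrain were both higher in KD-1. *En1*, which maintains the midbrain and cerebellar territory, was counted 3, 19 and 44 times for Control (NT) and 153, 109 and 248 times for KD-1. These corresponded to 0.145, 0.562 and 0.794 CPM for the former and 3.65, 2.51 and 2.86 CPM for the latter. The groups did not overlap, but the Control (NT) values spread widely and the shallowest library was at the limit of detection. *En1* rose 5.36-fold (95% interval 2.90 to 9.94), or by 2.42 on the log2 scale (SE 0.39, adjusted p = 0.00068, edgeR). With single libraries left out, the log2 fold change of *En1* lay between 2.11 and 2.93 and was called each time.

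*Gbx2*, which acts on the hindbrain side of the isthmus and is also a WNT and LIF target in stem cells, had 4.87, 7.28 and 5.04 CPM in Control (NT). In KD-1 it had 11.6, 11.6 and 10.8 CPM, above all Control (NT) libraries. *Gbx2* rose 1.97-fold, or by 0.98 on the log2 scale (SE 0.16, adjusted p = 0.00065, edgeR). Both *En1* and *Gbx2* lie on chromosome 1, where calls went up for 40.2% of its tested genes and down for 7.81%, and whose median log2 fold change was 0.49. Relative to that median, *En1* was higher by 1.93 on the log2 scale and *Gbx2* by 0.49, at percentiles 93.1 and 72.3 of the chromosome. The part of the chromosome in the rise of these genes was not tested.

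Of the broad neural tube factors, *Zic1* was called higher and *Irx3* was not. *Irx3*, an Iroquois factor of the caudal forebrain to spinal cord, had 9.94, 12.8 and 9.30 CPM in Control (NT) and 13.0, 13.1 and 12.7 CPM in KD-1. The Control (NT) library of middle depth reached the KD-1 range and the other 2 lay below it. The log2 fold change of *Irx3* was 0.28 (SE 0.13, 95% interval -0.01 to 0.56), with an adjusted p of 0.084 in edgeR. When that library was left out it was 0.43 with an adjusted p of 0.0006, which is still under 1.5-fold. *Zic1*, a zinc-finger factor of the dorsal neural tube and dorsal somites, had 21.9, 24.9 and 21.1 CPM in Control (NT) and 85.2, 86.1 and 82.5 CPM in KD-1. The groups were far apart, and *Zic1* rose 3.74-fold, or by 1.90 on the log2 scale (SE 0.08, adjusted p = 2.3e-07).

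In all, edgeR called 5 of these 7 genes higher in KD-1, beside 19.7% of all genes, and 0 of them lower, beside 18.1%. For the same 5 genes all KD-1 libraries lay above all Control (NT) libraries, a separation seen in 35.3% of all genes tested. The median log2 fold change of the 7 was 0.98. The size of the change did not follow the rostral to caudal order: the 95% intervals of *Otx2*, *En1* and *Zic1* all lay above those of *Pax6*, *Gbx2* and *Irx3*.

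**Figure D2:**
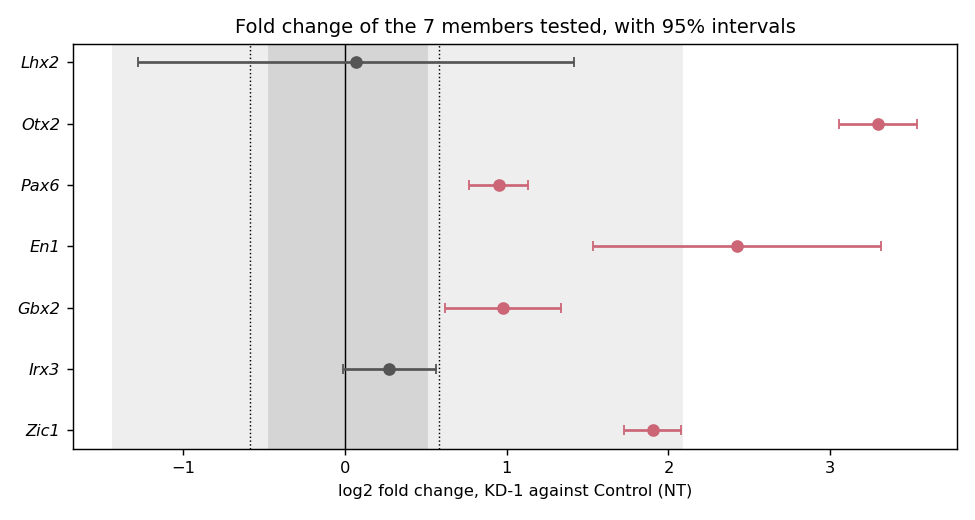
Log2 fold change of KD-1 against Control (NT) for the 7 genes tested, with 95% intervals, in rostral to caudal order. Red marks called genes and dark grey the others, dotted lines mark 1.5-fold either way, and the grey bands hold the middle 50% (dark) and 90% (light) of all 15110 genes. *Otx2* and *En1* lie beyond the upper end of the light band at 2.09, *Zic1* lies within it at 1.90, and the interval of *Lhx2* spans 0 widely.

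To compare genes with each other, levels were divided by the length of the canonical transcript (CPM per kb). In Control (NT) the order of mean levels was *Zic1* at 4.04, *Irx3* at 3.89, *Gbx2* at 2.66, *Pax6* at 2.62, *Otx2* at 1.33, *En1* at 0.188 and *Lhx2* at 0.0943 CPM per kb. *Zic1* and *Irx3* overlapped over the libraries, as did *Gbx2* and *Pax6*, and *En1* and *Lhx2*. In KD-1 the order was *Zic1* at 15.1, *Otx2* at 12.9, *Gbx2* at 5.26, *Pax6* at 5.05, *Irx3* at 4.71, *En1* at 1.13 and *Lhx2* at 0.0913 CPM per kb. Only *Gbx2* and *Pax6* overlapped among neighbours of that order. *Otx2* therefore moved from the fifth place to the second, while *Irx3* moved from the second to the fifth.

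*Otx2* and *Gbx2* repress each other at the midbrain-hindbrain boundary of the embryo, and both rose here. Their ratio within a library does not depend on the scaling between libraries. With 0.1 CPM added to each gene, the log2 ratio of *Otx2* to *Gbx2* was -0.21, -0.52 and -0.40 for Control (NT) libraries and 1.89, 1.84 and 1.95 for KD-1 libraries. *Otx2* was thus below *Gbx2* in every Control (NT) library and above it in every KD-1 library. The ratio was 4.83-fold higher in KD-1, with an exact two-sided permutation p of 0.1, which is the smallest that 3 against 3 libraries can give. The log2 ratio of *Otx2* to *Otx1* was higher by 3.59 in KD-1 (exact permutation p = 0.1), but with *Otx1* at or under 3 counts in every library its size depends on the added CPM and was 3.24 with 0.5 CPM.

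Within the families to which these genes belong, members went in both directions. Of 32 paralogues, 24 passed the filter, of which 13 were called higher and 9 lower, with a median log2 fold change of 0.74. Among the Zic genes, which share a zinc-finger domain, *Zic4* rose (log2 fold change 2.02, adjusted p = 9.9e-05), as did *Zic5* (0.95, adjusted p = 2.9e-05). *Zic2*, active in the epiblast and early neural plate, had a log2 fold change of -0.43 and was not called. Since *Zic4* overlaps *Zic1* on the opposite strand and the use of strand is not stated, reads from the pair cannot be told apart there.

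The Iroquois genes were likewise uneven. *Irx2* rose (log2 fold change 1.25, adjusted p = 2.8e-05) and *Irx5* rose (1.68, adjusted p = 0.00013), whereas *Irx4* fell (-1.80, adjusted p = 0.0053). *Irx1* had a log2 fold change of -0.35 and was not called, like *Irx3*. *Irx3* made up 34.7% to 44.1% of the Irx total per kb in Control (NT) and 29.6% to 31.1% in KD-1, while *Irx2* made up 27.4% to 29.9% and 42.4% to 43.8%. Among the smaller families, *En2* rose with *En1* (log2 fold change 1.22, adjusted p = 0.0017). By order of depth, the Control (NT) libraries had *En1* shares of 15.4%, 37.0% and 56.0% of the En total. These rest on only 3, 19 and 44 counts of *En1*. The KD-1 libraries had shares of 69.8%, 57.1% and 58.9%. The ranges did not overlap, but the Control (NT) share climbed with depth and its highest value lay close to the lowest of KD-1. The size of a shift in the *En1* share is therefore uncertain. *Gbx1* also rose (1.88, adjusted p = 0.00089), and *Gbx2* stayed at 89.7% or more of the Gbx total in all libraries.

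**Figure D3:**
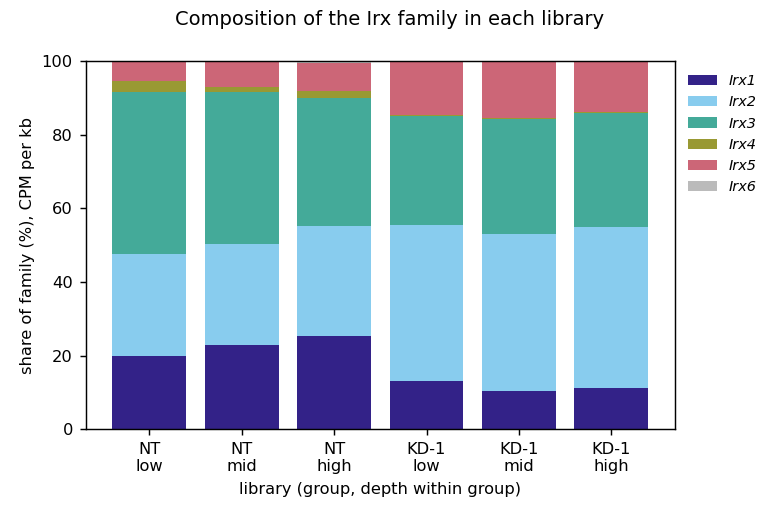
Share of each Irx gene in the summed CPM per kb of its family, stacked to 100% in each of the 6 libraries, named by group and depth. The shares of *Irx5* grow from at most 7.77% in Control (NT) to at least 13.4% in KD-1, and *Irx2* exceeds *Irx3* in the KD-1 libraries only.

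Paired-type, LIM and sine oculis-type paralogues also went in both directions. *Pax2* and *Pax8*, which act at the isthmus and in the kidney, had 0.0901 and 0.0940 CPM in Control (NT) and 0.835 and 1.26 CPM in KD-1, and both were called higher (adjusted p = 0.001 and 0.0003). *Pax1*, a sclerotome factor, fell from 3.29 to 0.0315 CPM and *Pax9* fell with a log2 fold change of -2.76. *Pax3*, shared by dorsal neural tube, neural crest and somites, fell 2.12-fold (adjusted p = 9.7e-07). *Lhx5*, a forebrain LIM factor, had at most 2 counts in a Control (NT) library and 65, 59 and 103 counts in KD-1 (adjusted p = 3.8e-05). *Lhx1*, expressed in anterior and intermediate mesoderm as well as neurons, fell 9.31-fold (adjusted p = 1.8e-05). *Six2*, a factor of the kidney, fell with a log2 fold change of -3.34.

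Other forebrain factors ranged from undetected to well expressed. Of 26 listed, 8 passed the filter, and 7 had 3 counts or fewer in every library. Among those 8, the calls were 3 higher and 5 lower, with a median log2 fold change of -1.18, whereas DESeq2, without that filter, called 5 of the list higher and 4 lower. *Six6*, an eye field factor related to *Six3*, was counted 1, 0 and 2 times for Control (NT) and 8, 12 and 21 times for KD-1 and did not pass the filter, and DESeq2, run without it, gave an adjusted p of 0.019. *Dlx1*, a ventral forebrain factor, rose to 1.21 CPM from 0.165 (adjusted p = 0.004), and *Sp8* rose by 0.72 on the log2 scale, with 15.2 CPM in Control (NT) and 25.1 CPM in KD-1. *Sim1* fell 41.5-fold and *Foxd1* fell 26.8-fold, genes that are also known from somites and from kidney stroma, and *Emx2*, also a urogenital gene, fell with a log2 fold change of -4.25.

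Midbrain and isthmus factors were detected more broadly. Of 16 listed, 14 were tested, with 8 called higher, 4 lower and a median log2 fold change of 1.21. *Cnpy1*, a modulator of FGF signalling at the isthmus, rose from 37.0 ± 5.29 to 244 ± 2.64 CPM (SD, n = 3), 6.64-fold (adjusted p = 1.2e-07). *Pax5* rose with a log2 fold change of 1.71, and *Fgf17*, an isthmic FGF, with 1.57. *Fgf8*, the organiser signal of the isthmus and also a tail bud gene, fell from 0.925 to 0.148 CPM (adjusted p = 0.001), and *Fgf18* fell 4.57-fold. *Wnt1*, which marks the midbrain side of the boundary, had at most 6 counts in any library.

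Hindbrain and dorsoventral factors went in mixed directions. Of 14 hindbrain factors, 12 were tested, with 2 called higher, 6 lower and a median log2 fold change of -0.69. *Gbx1*, the paralogue of *Gbx2*, and *Egr2*, a factor of hindbrain segments (log2 fold change 2.02, adjusted p = 0.031), rose. Of 22 dorsoventral factors of the neural tube, 12 were tested, with 7 called higher, 3 lower and a median log2 fold change of 1.35. *Msx3*, a marker of the dorsal neural tube, was counted 0, 0 and 8 times for Control (NT) and 237, 225 and 443 times for KD-1 (adjusted p = 1e-05). *Dbx1*, of intermediate progenitors, fell 4.46-fold. *Shh*, the ventral midline signal, had 0 counts in Control (NT) and at most 4 in KD-1.

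**Figure D4:**
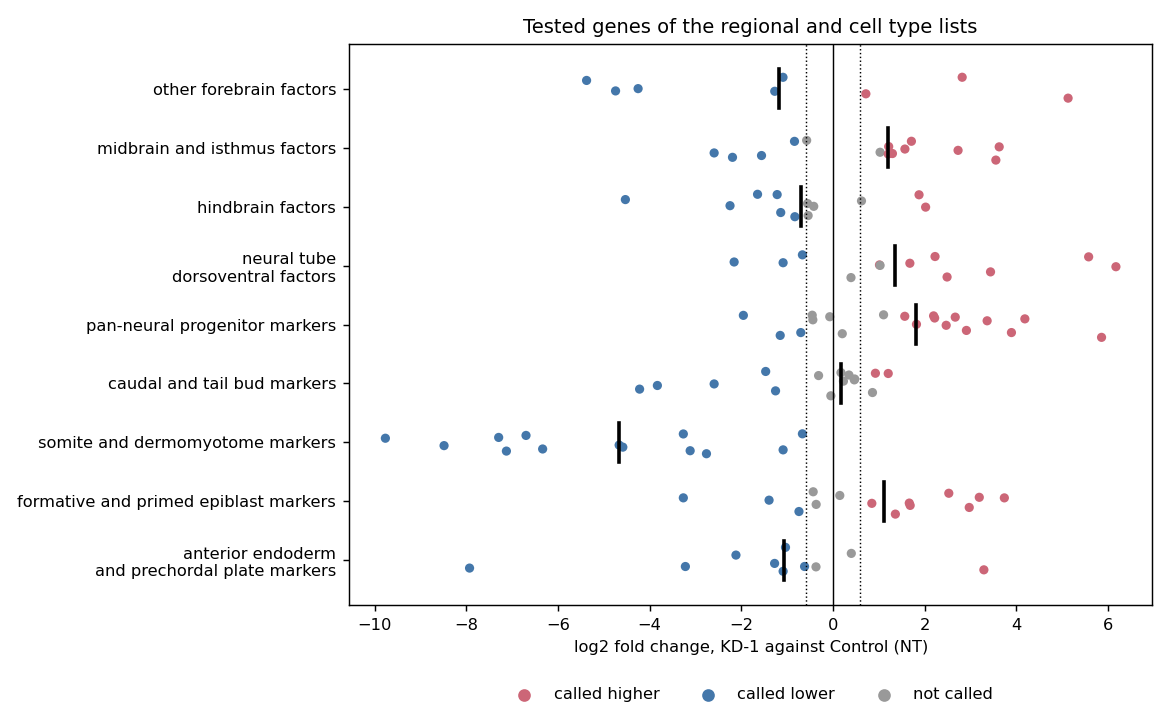
Log2 fold change of KD-1 against Control (NT) for the tested genes of 9 lists of regional factors and cell type markers. Each point is a gene coloured by its call, black bars are medians and dotted lines mark 1.5-fold either way. Midbrain and isthmus factors have a median of 1.21, pan-neural markers 1.82, other forebrain factors -1.18, hindbrain factors -0.69 and somite markers -4.67.

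Several of the 10 genes are expressed outside the neural plate, so markers of the other cells were measured in the same libraries. Of 19 pan-neural markers, all were tested, 11 were called higher and 3 lower, with a median log2 fold change of 1.82. Their summed level was 826 to 889 CPM in Control (NT) and 1466 to 1505 CPM in KD-1. *Fabp7*, a radial glia gene, rose from 16.3 to 243 CPM. Without it and *Sox2* the other 17 markers summed to 708 to 739 CPM in Control (NT) and 700.2 to 712 CPM in KD-1. That choice was made after the data were seen. The near-equal sums hold both falls and rises of single genes. The abundant *Cdh2* fell from 278 to 171 CPM, whereas *Map2* rose from 8.35 to 85.6 CPM and *Tubb3* from 7.72 to 58.6 CPM. *Sox1*, a marker of neural progenitors, rose 3.54-fold and *Sox2*, shared by neural and pluripotent cells, rose 4.66-fold. *Dcx* and *Elavl3*, genes of young neurons, rose 58.2-fold and 18.2-fold, while *Notch1* fell 3.87-fold and *Ncam1* fell 2.22-fold. In bulk RNA, more cells of a type and more RNA per cell cannot be told apart.

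*Otx2* is a primed epiblast gene as well as a neural gene. Of 14 formative and primed epiblast markers, all were tested, 8 were called higher and 3 lower, with a median log2 fold change of 1.11. Their summed level was 390 to 415 CPM in Control (NT) and 405 to 409 CPM in KD-1. *Fgf5*, a defining marker of the primed epiblast, had 0.916, 1.12 and 0.758 CPM in Control (NT) and 2.34, 2.37 and 2.43 CPM in KD-1. *Grhl2* rose 13.4-fold and *Foxd3* rose 9.16-fold, and *Tcf15*, also a somite gene, fell 9.61-fold. The part of primed cells in the rise of *Otx2* was not tested.

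Of 15 markers of the anterior endoderm and prechordal plate, 10 were tested, among which only *Otx2* itself was called higher and 7 were called lower. The median log2 fold change was -1.06, and the summed level was 120 to 133 CPM in Control (NT) and 86.5 to 87.9 CPM in KD-1. These sums include *Otx2*, and without it, a choice made after the data were seen, the other 14 markers summed to 116 to 128 CPM in Control (NT) and 44.5 to 45.0 CPM in KD-1. Levels differed widely within the list. *Noto* had 0 counts in every library and *Gsc* at most 10. *Foxa2* was counted 2, 1 and 1 times for Control (NT) and 6, 5 and 9 times for KD-1. Counts of *Sox17* were 4, 9 and 9 for Control (NT) and 0, 0 and 1 for KD-1. *Lefty1* was well expressed and fell from 47.5 to 23.2 CPM. *Hhex* had 1.32 CPM in Control (NT) and 1.01 CPM in KD-1 and was not called. *Cer1*, a secreted antagonist of WNT, Nodal and BMP from anterior endoderm and also from nascent somites, had 15.2, 13.9 and 14.8 CPM in Control (NT) and 0, 0.0460 and 0.0921 CPM in KD-1 (adjusted p = 1.8e-07). *Dkk1*, a WNT antagonist of the rostral embryo, was counted 1, 11 and 16 times for Control (NT) and 11, 15 and 30 times for KD-1, with a log2 fold change of 0.40 (SE 0.53, adjusted p = 0.53, edgeR). Of 10 rostral WNT antagonists, 8 were tested, with 3 called higher, 3 lower and a median log2 fold change of 0.05.

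*Zic1* and *Irx3* are also expressed in somites or other trunk tissue. All 13 tested of 14 somite and dermomyotome markers were called lower, with a median log2 fold change of -4.67, and their summed level was 640 to 727 CPM in Control (NT) and 62.3 to 63.7 CPM in KD-1. *Meox1*, a defining somite gene, had 354, 388 and 372 CPM in Control (NT) and 0.453, 0.391 and 0.426 CPM in KD-1. The rise of *Zic1* thus stood beside a low level of these markers in KD-1, and the part of somite cells in the values of *Zic1* and *Irx3* was not tested. *T*, a marker of the tail bud, had 5.21, 8.64 and 6.21 CPM in Control (NT) and 5.84, 5.03 and 5.38 CPM in KD-1 (log2 fold change -0.31, adjusted p = 0.17).

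Genes next to the 10 on their chromosomes were read from the same fit. Beside *Otx2* (chr14:48894099-48911276, GRCm39), the nearest tested gene on the lower-coordinate side, *Tmem260*, had a log2 fold change of -0.48, and on the other side *Gm48909*, at under 1 CPM, had -1.01 with a SE of 1.01. Neither was called. Beside *En1* (chr1:120530108-120535721), *Steap3* had 0.10 and *Insig2* -0.02. Beside *Gbx2* (chr1:89855678-89858920), *Agap1* had 0.21 and *Asb18* 0.52, and neither was called. *Elp4*, which overlaps *Pax6* (chr2:105499234-105530952) on the opposite strand, had 0.02, and its reads and those of *Pax6* cannot be told apart where they overlap. Farther out, *Rcn1* had -0.29 and was not called, and *Immp1l* fell by 0.59 on the log2 scale (adjusted p = 2.6e-05). Beside *Irx3* (chr8:92525153-92528695), *Fto* had -0.55 and was not called, whereas *Irx5*, 556 kb away, rose. *Zic4*, which overlaps *Zic1* (chr9:91240111-91247863), rose by 2.02 on the log2 scale, beside 1.90 for *Zic1*, whereas *Plscr1*, 884 kb away, fell by 0.72 and *Gm5620* had -0.44 and was not called. Beside the genes of few or no counts, *Six2* near *Six3* fell, *Wdpcp* near *Otx1* fell by 0.71, *Dennd1a* near *Lhx2* fell by 0.66, and *Il17rd* near *Hesx1* rose by 0.89. Their other neighbours *Camkmt*, *Ehbp1*, *Nek6* and *Appl1* had 0.49, 0.09, -0.48 and 0.19 and were not called. Annotated lncRNAs that overlap *Six3*, *Lhx2*, *Otx1*, *Otx2*, *Pax6*, *Gbx2* and *Irx3* on the opposite strand were not analysed here.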

How the data were processed

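Gastruloids of Control (NT) and KD-1 were collected at 120 h, and TruSeq libraries were sequenced as paired-end reads. Per the labels and methods, the authors used bcl2fastq and Salmon (version 1.1) with a Gencode model and deposited estimated counts (expected counts) per gene, as whole numbers without normalization. Genome build, strand use and the summing of transcripts are not given in the sources used here. Salmon assigns shared reads by probability, so counts of paralogues and overlapping genes are uncertain. Pairs of libraries of the same group all differed by more than sampling noise (chi-square per degree of freedom of at least 4.85). Each was therefore counted as 1 sample rather than as a split of 1 library. This does not show that they came from separate cultures, since the difference may be technical.

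Names, positions and canonical transcript lengths came from GENCODE vM39 (GRCm39), which matched 35222 of 35565 identifiers. Differential expression used edgeR 4.0.16 in R 4.3.3 (filterByExpr, TMM, robust glmQLFit, glmQLFTest) with condition as the only term. TMM factors lay between 0.975 and 1.03. Calls needed an adjusted p under 0.05 and a change of over 1.5-fold. The study's tool, DESeq2 (version 1.42.0), and limma-voom (limma 3.58.1) were alternatives, with others on normalization, filter, thresholds and libraries left out. Ratios within libraries used an exact permutation test.

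The 10 genes and all lists were chosen with earlier results of these data known. Besides the 10, text names the 2 largest rises and 2 largest falls called in each list with at least 1 CPM in a group, landmark genes (*Sox1*, *Sox2*, *T*, *Meox1*, *Dkk1*, *Cer1*) and neighbours. Some genes that this rule names are not reported here. Other list members (paralogues, defining markers) were named after their values were seen. A planned comparison of homeodomain proteins was not run, since no protein sequences were used here. Promoters were from RefSeq (9 of 10 genes matched).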

Additional observations from a re-analysis of the deposited data

How the results depend on the processing

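Over 17 alternatives to the edgeR fit, 112 of 117 values of the 7 genes kept their direction and side of the threshold. Alternatives that changed only the fold threshold, the test against 1.5-fold or the robust estimation gave the same log2 fold changes as the main fit. Their values therefore say nothing on direction. *Otx2*, *En1* and *Zic1* were called in every alternative that tested them, with log2 fold changes of 3.18 to 3.43, 2.11 to 2.93 and 1.85 to 1.98. With the threshold raised to 2-fold, *Pax6* and *Gbx2* lost their call and the number called higher was 3 rather than 5. With at least 10 counts in every library *En1* and *Lhx2* were not tested and 4 were called. *Lhx2* reversed to -0.27 without the Control (NT) library of highest depth, to -0.043 without the KD-1 library of lowest depth and to -0.37 without the KD-1 library of highest depth, at adjusted p-values of 0.57 or more in all alternatives. *Irx3* ranged from 0.17 to 0.43 with adjusted p from 0.0006 to 1 and was never called. Over all genes, there were 1948 rises and 1326 falls past 2-fold, 4676 and 4921 without a fold threshold, and 1680 lower when edgeR tested against 1.5-fold (glmTreat), against 2976 and 2728. DESeq2 called 5 rather than 3 other forebrain factors higher and 4 rather than 5 lower. The difference between KD-1 and Control (NT) in the log2 ratio of *Otx2* to *Gbx2* lay between 2.20 and 2.36 with libraries left out and was 2.21 with 0.5 CPM added. No paired analysis was possible because the number suffixes of the columns do not match the replicate numbers of the labels. Depth limits *Six3*, *Hesx1*, *Otx1* and *Lhx2*, whose counts allow no statement on a change.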

Other observations

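Naive pluripotency, caudal and neural crest markers were counted in the same fit. Of 14 naive pluripotency markers, all were tested, 12 were called higher in KD-1 and 0 lower, with a median log2 fold change of 1.54, and their summed level was 799 to 845 CPM in Control (NT) and 2325 to 2393 CPM in KD-1. *Nr5a2*, a nuclear receptor of naive cells, rose 4.12-fold and *Prdm14* rose 3.74-fold. Of 16 caudal and tail bud markers, 15 were tested, with 2 called higher, 5 lower and 8 not called. Their median log2 fold change was 0.18. The summed level of the list was 196 to 217 CPM in Control (NT) and 212 to 225 CPM in KD-1. *Cdx1*, a caudal homeobox gene, fell 18.6-fold from a mean of 5.56 CPM in Control (NT). *Cyp26a1*, which degrades retinoic acid in the tail bud, fell 14.2-fold from 2.32 CPM. *Nkx1-2*, of neuromesodermal progenitors, rose 1.90-fold from 17.6 CPM and *Sp5*, a WNT target, rose 2.31-fold from 0.946 CPM. Of 12 neural crest markers, 11 were tested, with 4 called higher, 5 lower and a median log2 fold change of -0.41. *Tfap2b* rose from 0.209 to 18.1 CPM, whereas *Ets1* fell with a log2 fold change of -5.04 and *Twist1* with -3.05, genes that are also expressed in mesoderm.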
